A study of Arabidopsis thaliana with 9 samples.

Results

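Leaves of homozygous ddm1 plants were compared with leaves of wild-type Arabidopsis thaliana of the accession Col-0. The members were the 33323 nuclear loci among the 33602 loci counted in the series, and chloroplast and mitochondrial loci were left out. The ddm1 plants, written ddm1(-/-), were of the second generation, and the plants of both groups were 4 to 5 weeks old. Each group had 3 libraries, described in the labels as independent biological replicates. A further 3 libraries, of the F1 Col-0 X ddm1, entered the filter on low counts, the normalisation and the estimate of the spread, but not the contrast. Their values are given in a few places beside the others. Ribosomal RNA was removed from total RNA, and directional libraries were read as single 50 bp reads. The ddm1 allele is not named in the labels, and whether the 3 ddm1 libraries came from 1 family or several is not given in the sources used here.

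DDM1 is an ATPase of the SNF2 family that remodels chromatin and lets DNA methyltransferases reach the heterochromatin where most transposons lie. Without it, DNA methylation is lost from transposons and repeats, these become transcribed, and changes of the methylation state of single loci can build up and be inherited over generations of inbreeding. In leaves, genes that are already active lie mostly in open chromatin on the chromosome arms, while the silent loci that depend on DDM1 are gathered around the centromeres.

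The libraries held 5212771 to 7574806 nuclear counts. Levels are given as CPM, nuclear counts scaled to a total of 1e+06 per library after TMM normalisation, and a locus was called when its p from edgeR's quasi-likelihood test, adjusted by Benjamini-Hochberg over all 18045 tested nuclear loci, was under 0.05. DDM1 itself had 3, 12 and 5 counts in the wild-type libraries and 1, 2 and 2 in ddm1, too few to check the genotypes. The 6 leaf mesophyll markers summed to between 25948 and 49596 CPM in the 6 libraries, while root, flower and seed markers summed to at most 63.4, 30.7 and 3.85 CPM, with 5 of 7 root markers and 7 of 8 seed markers at 0 in every library of the series. The third ddm1 library stood apart. Across loci its log2 CPM correlated with those of the other ddm1 libraries at 0.837 and 0.845, while every other pair within a group lay between 0.898 and 0.966. Of 8210 loci with a mean of 20 CPM or more, 21.96% lay over 2-fold from the mean of its group mates in that library, against 2.89% to 10.6% in the other 8 libraries. Rapid stress genes were low in it and light-related genes were high: WRKY40, a stress transcription factor, had 131, 239 and 5.22 CPM in the 3 ddm1 libraries. The second wild-type library was nearest to it in this respect, with 36.5 CPM of WRKY40 against 511 and 180 in the other wild-type libraries. Counts are therefore given with and without the third ddm1 library.

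Most loci called between ddm1 and wild-type leaves were TE genes. In all, 1333 loci (7.39% of those tested) were called, 1244 (6.89%) of them higher in ddm1 and 89 (0.493%) lower. TE genes, the annotated genes of transposable elements, made up most of the first group: of 1231 tested among 3881, 1062 (86.3%) were higher and 6 (0.487%) lower. Of 16814 non-TE loci tested, 182 (1.08%) were higher and 83 (0.494%) lower. Among those with a wild-type mean under 1 CPM, 130 of 379 tested (34.3%) were higher and none was lower; many of these loci, like many TE genes, were tested only because of their F1 or ddm1 counts, so that these shares are not support for a change. Among the 16435 tested non-TE loci that wild-type leaves expressed, at a mean of 1 CPM or more, 52 (0.316%) rose and 83 (0.505%) fell. For these expressed loci, an unadjusted p under 0.05 was reached by 1145, or 6.97%, and the median log2 fold change was -0.01. In simulated counts of this comparison over 17654 loci, changed loci were drawn only from those above a set mean level. The test recovered 4% of loci changed 2-fold, 60% of those changed 4-fold and 90% of those changed 8-fold, and it called 9 unchanged loci. Changes of 2-fold were thus mostly not detectable at this depth and spread, and recovery at the lowest levels was not simulated. Counts were drawn separately for each locus. A shift shared by many loci of a library, as in the third ddm1 library, was therefore not simulated either.

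The share of expressed non-TE loci that fell was larger at higher wild-type levels. It was 0.246% of 5287 loci at 1 to 10 CPM, 0.518% of 9261 at 10 to 100 CPM and 1.17% of 1887 at 100 CPM or more. The share that rose was 0.454%, 0.259% and 0.212% in the same bands. At 100 CPM or more, 22 genes fell and 4 rose: DND1, AT2G34655, AT2G16586 and the noncoding RNA AT2G43375. Higher levels also give the test more counts, and the bands were set by the wild-type values that enter the contrast. The part of either in the trend was not tested. With expression judged by the mean over all 9 libraries, 180 of 16787 tested loci rose and 82 fell (1.07% and 0.488%). Without the third ddm1 library, 199 expressed loci rose and 191 fell, of 16673 tested (1.19% and 1.15%). The share that rose then no longer fell with level, at 0.978%, 1.295% and 1.32% in the same 3 bands (54, 120 and 25 loci), and the share that fell was 0.199%, 1.24% and 3.44% (11, 115 and 65 loci). Of the 52 and 83 calls made with all libraries, 41 and 61 were also made without it. Without it, 1574 of all 18526 tested loci were called (8.5%), 1378 higher (7.44%) and 196 lower (1.06%). These were 1043 TE genes higher (80.7%) and 5 lower (0.387%), and 335 non-TE loci higher (1.94%) and 191 lower (1.11%), of which 136 of the higher ones (24.3% of those tested) were under 1 CPM in wild type. In bulk leaves, fewer cells of a type and less RNA per cell cannot be told apart.

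**Figure D1:**
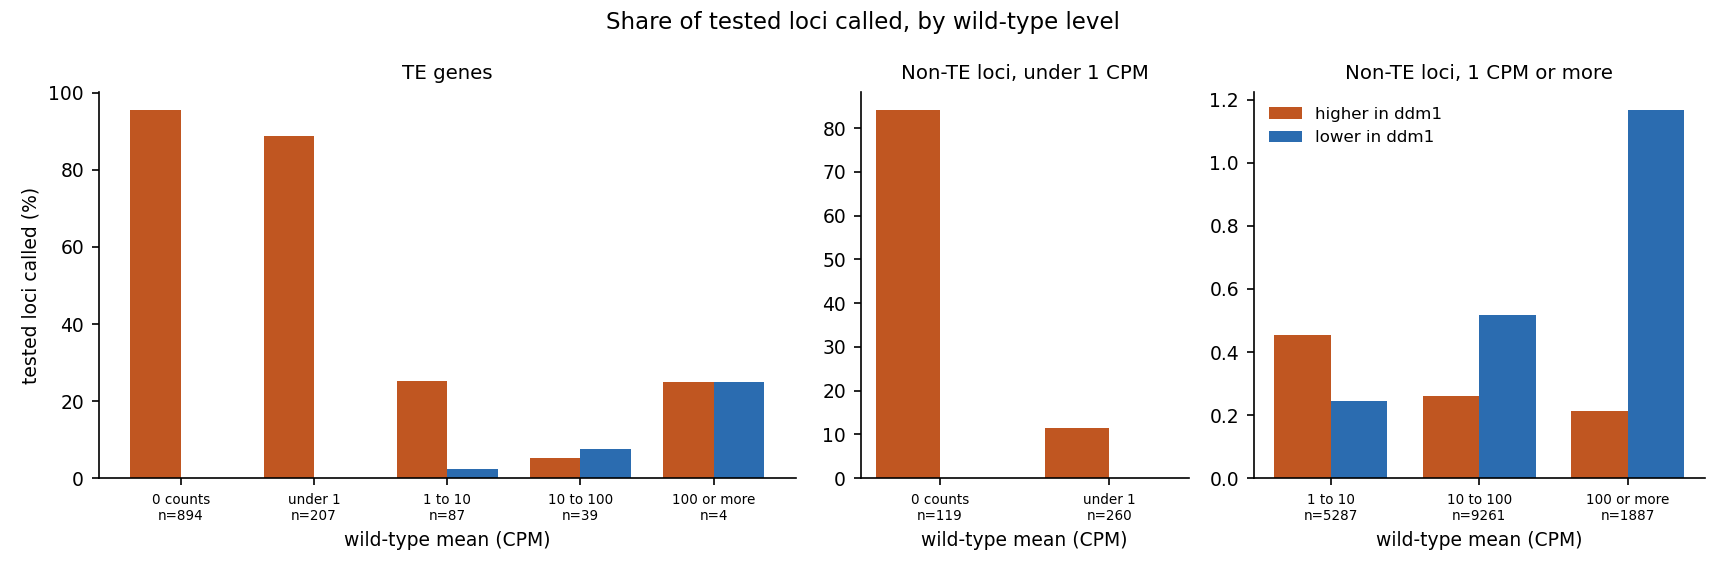
Share of tested loci called higher (orange) or lower (blue) in ddm1, in percent, by mean wild-type level in CPM, for TE genes, for non-TE loci under 1 CPM and for non-TE loci at 1 CPM or more; the 3 vertical axes differ. Loci with 0 wild-type counts were called higher in 95.4% of tested TE genes and 84.0% of tested non-TE loci, but these loci passed the filter on low counts through their F1 or ddm1 counts, so that their bars are set by the filter; in the right panel the highest bar is 1.17%.

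In the RNA itself, the newly active loci took a visible part of the total. TE genes took 0.248%, 0.261% and 0.255% of nuclear counts in the wild-type libraries and 8.92%, 9.28% and 9.40% in ddm1. All 3 ddm1 libraries lay far above all 3 wild-type libraries (two-sided exact permutation p = 0.1, the smallest possible with 3 against 3). Non-TE loci with no wild-type count took only 0.187%, 0.207% and 0.240% in ddm1. The 52 expressed loci that rose went from 0.688% ± 0.0836 (SD, n = 3) to 1.85% ± 0.0460 of nuclear counts and the 83 that fell went from 0.727% ± 0.0599 to 0.194% ± 0.00713; both describe loci chosen by the same values.

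Calls on expressed loci were few both near the centromeres and on the arms. Of non-TE loci under 1 CPM in wild type, 91 of 114 tested were higher in the pericentromeres, here taken as 2.5 Mb to the left and right of the centre of each chromosome's most TE-rich window, and 37 of 263 on the arms; only 114 of 1584 and 263 of 10370 such loci were tested, largely those with ddm1 or F1 counts, so nothing is read from these shares. Of expressed loci, 9 rose and 8 fell among 926 in the pericentromeres (0.972% and 0.864%), and 43 rose and 75 fell among 15440 on the arms (0.278% and 0.486%). Without the third ddm1 library these shares were 1.38% and 1.597% in the pericentromeres and 1.18% and 1.12% on the arms. A TE gene that itself rose lay within 5 kb of 2 of the 52 expressed loci that rose (3.85%) and of 4 of the 83 that fell (4.82%), beside 287 of all 16366 located expressed loci (1.75%). Of the 128 located silent loci that rose, 33 had such a neighbour (25.8%), beside 38 of 377 tested (10.1%), under the same limit.

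The loci raised from silence included pseudogenes, noncoding RNAs and genes of unknown function. Of 86 tested loci under 1 CPM annotated as proteins of unknown function, 52 were higher, beside 34.3% of all tested silent loci, but only 86 of 2189 such loci passed the filter, and the share is a description. At any wild-type level, 131 of 16385 tested protein-coding loci (0.800%) were higher, while 36 of 130 tested pseudogenes (27.7%) and 13 of 226 noncoding RNAs (5.75%) were higher. Only 130 of 956 pseudogenes and 226 of 1282 noncoding RNAs were tested, against 16385 of 26712 protein-coding loci. Silent loci passed the filter through F1 or ddm1 counts, so nothing is read from the contrast between these classes. The noncoding RNA AT2G15555 on chromosome 2 (6785904 to 6786976, TAIR10) had no count in wild type and 138, 230 and 315 CPM in ddm1. It was at least 1546-fold higher against a floor of 3 counts over the wild-type group (adjusted p = 8.91e-06), and F1 libraries reached a mean of 185 CPM. AT3G45525, which encodes a RING/U-box protein, had 39.0, 59.9 and 550 CPM in ddm1 from no wild-type count. The third library was by far its highest. The pseudogenes AT1G44040, AT1G41890 and AT5G33251 reached means of 119, 101 and 97.4 CPM from 0. Of 10 Ulp1 protease genes silent in wild type, a family of SUMO protease relatives found inside many plant transposons, 7 passed the filter on low counts through their F1 or ddm1 counts and were higher, and the others were not tested. SDC, an F-box gene kept silent by DNA methylation of repeats at its promoter, had 0, 0.746 and 0 CPM in wild type against 4.71, 11.9 and 47.6 in ddm1 (adjusted p = 0.0120). The call on SDC was lost without wild-type replicate 1 or 3 (highest adjusted p = 0.0547).

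A small set of TE genes was active in wild type, and these did not all move one way. Of 130 tested at 1 CPM or more, 25 rose and 6 fell, beside 52 and 83 of 16435 expressed non-TE loci (0.316% and 0.505%). AT4G04410 had 29.7, 21.0 and 25.7 CPM in wild type and no count in ddm1, at least 149-fold lower (adjusted p = 0.000150). AT4G16870 went from 16.3, 10.6 and 10.7 CPM to 0, 0.183 and 0 (adjusted p = 0.000344). Both were thus almost lost in all 3 ddm1 libraries, and both stayed called with any 1 library left out. SADHU1-1, a noncoding retroelement known for its variable silencing among accessions, had 102, 90.8 and 118 CPM in wild type against 167, 230 and 272 in ddm1 (adjusted p = 0.0167). Its call was lost without wild-type replicate 1 or 2 or ddm1 replicate 2. Reads of near-identical transposon copies may have been shared among them, so that values of single copies are uncertain.

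Among genes that wild-type leaves expressed, 29 of the 83 that fell and 12 of the 52 that rose kept their call whichever of the 9 libraries was left out. The groups were without overlap in all 83 that fell and in 51 of the 52 that rose, so separation adds little to a call. Of all 16435 tested expressed loci, 1002 were lower and 901 higher without overlap. Among genes at 100 CPM or more in wild type, the largest drop was in AT1G58602, an immune receptor gene with leucine-rich repeats and an NB-ARC domain. It had 461, 473 and 468 CPM in wild type against 12.8, 2.01 and 0.652 in ddm1. The wild-type libraries were almost equal, and every ddm1 library lay at least an order of magnitude lower (log2 fold change -6.44 ± 0.88 SE, adjusted p = 0.000992). The TE gene AT1G58561 lies on the same strand within its span on chromosome 1, and it fell as well, from 174, 197 and 186 CPM to 65.8, 40.7 and 23.9. Of the 113 tested immune receptor genes with NB-ARC or TIR domains that wild-type leaves expressed, AT1G58602 was the only one called. That is 0.885%, beside 0.505% of expressed loci that fell, and the median of the 113 was 0.14. Without the third ddm1 library 8 of 115 tested were higher (6.96%) and 1 was lower (0.870%), beside 1.19% and 1.15% of expressed loci. FLC, the MADS-box repressor of flowering, had 9.26, 12.5 and 8.26 CPM in wild type and no count in ddm1, at least 58.4-fold lower (adjusted p = 0.00272), and it had no count in the F1 libraries either.

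**Figure D2:**
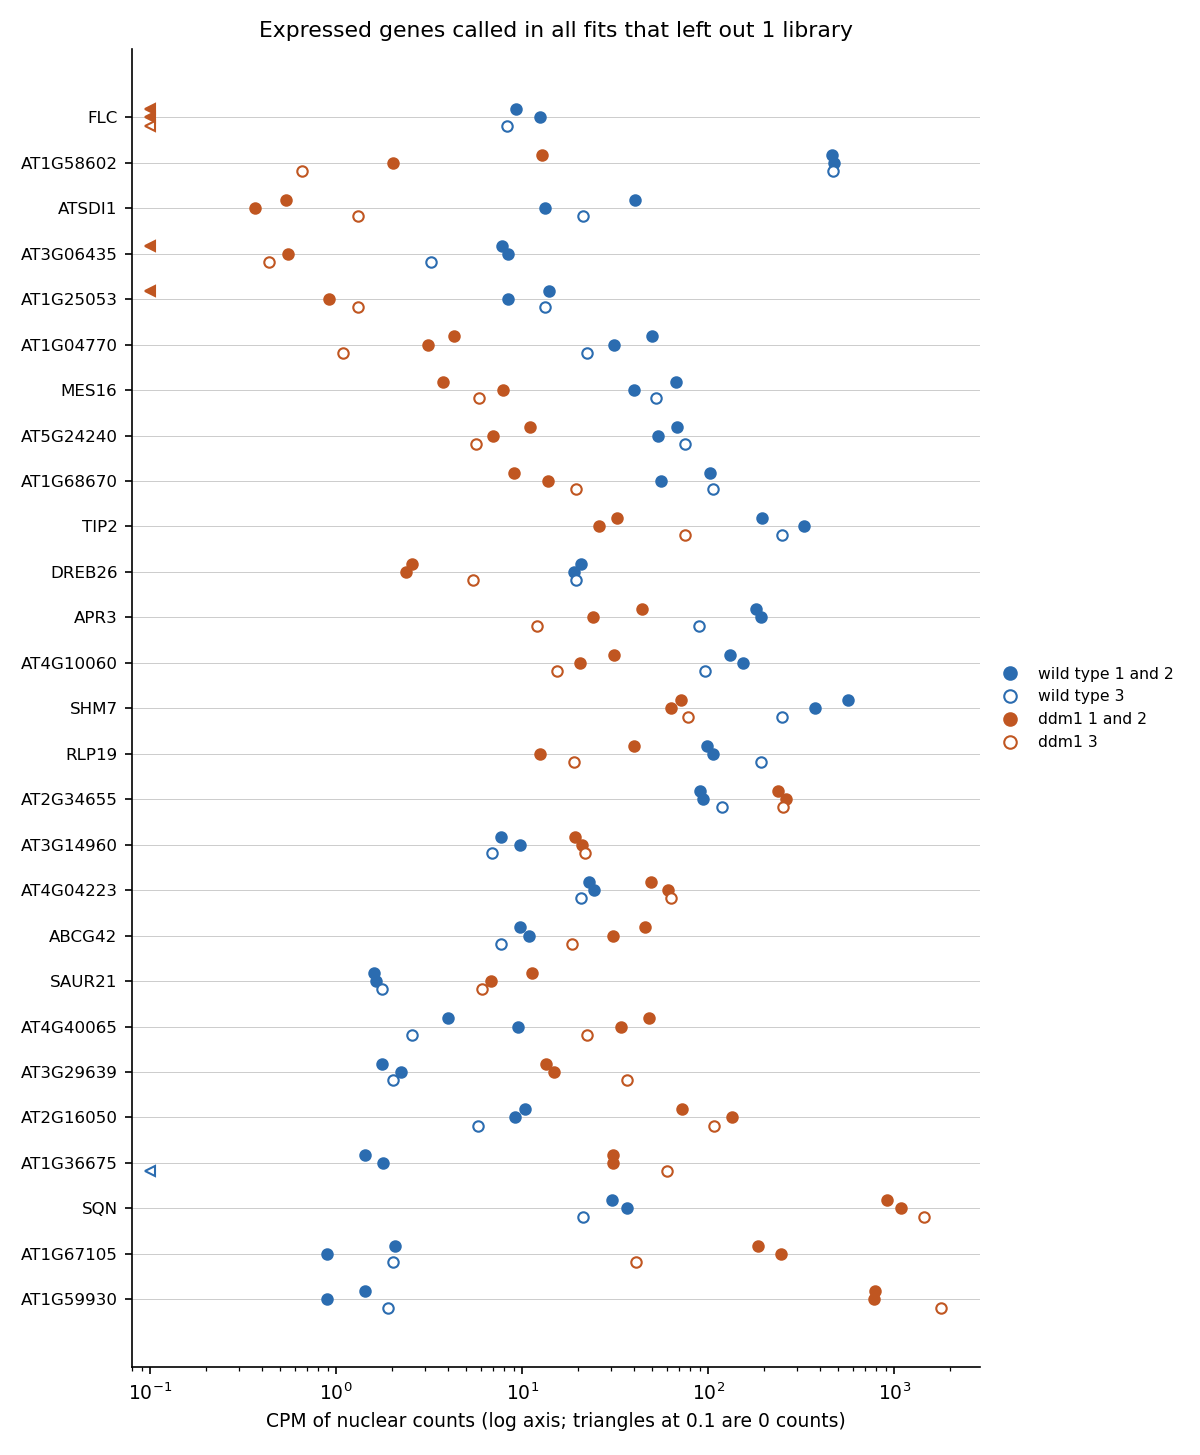
CPM of nuclear counts per library, on a log axis, for the 15 most lowered and the 12 raised expressed loci that stayed called with any 1 library left out (blue, wild type; orange, ddm1; open, replicate 3; triangles, 0 counts drawn at 0.1). In every row the 3 ddm1 libraries lie on one side of the 3 wild-type libraries. This holds for 83 of 83 lowered and 51 of 52 raised calls on expressed loci. In AT1G58602 wild type is near 467 CPM while ddm1 is at or under 12.8.

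The sulfur deficiency list had the lowest median of all lists with 8 or more tested genes. Members of this and the other lists were chosen with earlier results of these data known. The ranking and the values are therefore a description and not support for a change. Plants take up sulfate, activate it with ATP sulfurylase to APS, and then either reduce APS with APS reductase towards cysteine or phosphorylate it with APS kinase for sulfation reactions such as the last steps of glucosinolate synthesis. Of 15 genes listed as markers of sulfur deficiency, 9 were tested, 5 fell and none rose, beside 0.505% and 0.316% of expressed loci. All 9 had negative values, with a median log2 fold change of -2.47 beside -0.01 for all expressed loci. Without the third ddm1 library 6 of 10 tested fell, beside 1.15% of expressed loci, and the median was -2.58. The list summed to 1887, 1753 and 1096 CPM in wild type and to 292, 294 and 569 CPM in ddm1 (two-sided exact permutation p = 0.1), and the F1 libraries lay at 223 to 252 CPM. The 6 untested members had too few counts. No ddm1 library reached the lowest wild-type library.

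SHM7, a serine hydroxymethyltransferase gene, had 562, 376 and 250 CPM in wild type against 71.5, 62.8 and 77.4 in ddm1 (log2 fold change -2.49 ± 0.30 SE, adjusted p = 0.000440). APR1, an APS reductase gene, had 425, 409 and 322 CPM against 41.2, 51.6 and 116 (log2 fold change -2.47 ± 0.41 SE, adjusted p = 0.00344). APR3, the second such gene called, had 181, 193 and 89.3 CPM against 44.0, 24.2 and 11.96 (log2 fold change -2.52 ± 0.47 SE, adjusted p = 0.00742). In all 3 the groups did not overlap, and in APR3 the nearest libraries were at 89.3 and 44.0 CPM. The third ddm1 library was the highest ddm1 value in SHM7 and APR1 and the lowest in APR3. The calls held whichever library was left out (highest adjusted p = 0.0441 in APR3). APR2, whose product carries most APS reductase activity in leaves, had 508, 592 and 297 CPM against 76.9, 76.4 and 251, and it missed the threshold (adjusted p = 0.0918) with all libraries and passed it without ddm1 replicate 3 (adjusted p = 0.00419). SDI1 (ATSDI1, AT5G48850), a protein made under sulfur shortage that restrains glucosinolate synthesis, had 40.2, 13.3 and 21.1 CPM in wild type against 0.538, 0.366 and 1.305 in ddm1 (adjusted p = 0.00170). Its ddm1 libraries held only a few counts each. AT1G04770, a gene with the same kind of annotated TPR-like product, fell from 50.1, 31.2 and 22.3 CPM to 4.31, 3.11 and 1.09 (adjusted p = 0.00159). GGCT2;1 (AT5G26220), a ChaC-like enzyme that breaks down glutathione, had 34.5, 33.9 and 11.1 CPM against 1.48, 0.183 and 5.22 (adjusted p = 0.0357), a call lost in 6 of the 9 fits that left out a library.

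A wider list of 34 sulfate transporters and assimilation enzymes was drawn up after these values were seen, and is a description. Of its 28 tested genes, 5 fell and none rose, beside 0.505% and 0.316% of expressed loci, and 21 were negative. APR1 and APR3 are among these 5 and were already counted in the sulfur deficiency list. Without the third ddm1 library 10 genes of the wider list fell, beside 1.15% of expressed loci. By step of the pathway, uptake and transport were represented by SULTR3;1, a transporter of the chloroplast envelope, which had 178, 164 and 124 CPM in wild type against 77.9, 69.8 and 80.9 in ddm1 (adjusted p = 0.00835; 0.0526 without ddm1 replicate 2). It was the only transporter called. SULTR4;1, SULTR2;2, SULTR2;1 and SULTR4;2 had log2 fold changes of -1.06, -0.74, -0.56 and -0.35, and SULTR3;3 and SULTR3;4 of -0.04 and 0.12. In SULTR4;1 and SULTR2;2 every ddm1 library lay below every wild-type library (adjusted p = 0.0845 and 0.148). At activation, APS1 had 1510, 1092 and 1095 CPM against 551, 519 and 1112, so that the third ddm1 library overlapped wild type (adjusted p = 0.358). APS3 had 146, 132 and 102 CPM against 70.8, 48.0 and 65.7, without overlap (adjusted p = 0.139). APS2 and APS4 had log2 fold changes of -0.16 and 0.37 (adjusted p = 0.954 and 0.865). At the branch to sulfation, the APS kinase gene APK had 225, 145 and 232 CPM against 50.5, 70.5 and 114 (adjusted p = 0.0411, lost in 5 of the 9 fits that left out a library). The second APS kinase gene, AKN2, had 88.7, 52.2 and 69.7 CPM against 2.15, 12.1 and 22.8 and missed the threshold (adjusted p = 0.0629). A further one, APK4, had 15.8, 14.9 and 30.5 CPM against 47.8, 47.8 and 15.9, higher in the first and second ddm1 libraries only (adjusted p = 0.527). At the end of the pathway, serine acetyltransferases make the O-acetylserine backbone of cysteine. SERAT3;2, a weakly expressed gene of this kind, went from 4.31, 4.62 and 1.90 CPM to no count, at least 21.0-fold lower (adjusted p = 0.0199, lost in 4 of the 9 fits). The other tested ones, SERAT2;2, SERAT1;1, SERAT3;1 and SERAT2;1, were not called. Their log2 fold changes were -0.71, -0.20, -0.21 and 0.06. In SERAT2;2 every ddm1 library lay below every wild-type library (adjusted p = 0.0897). The enzymes that build cysteine and glutathione from O-acetylserine, OASA1, OASB, OASC, GSH1 and GSH2, were not called. Their log2 fold changes were -0.11, 0.05, -0.83, 0.10 and 0.53. In OASC every ddm1 library lay below every wild-type library (adjusted p = 0.380). GSH2 went the other way without overlap, with 69.7, 66.5 and 66.5 CPM against 108, 98.2 and 86.8 (adjusted p = 0.124). Sulfite reductase, SIR, had 703, 618 and 653 CPM against 276, 290 and 729. Only the first and second ddm1 libraries lay below wild type in SIR, where the adjusted p was 0.605 with all libraries and 0.00578 without the third.

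**Figure D3:**
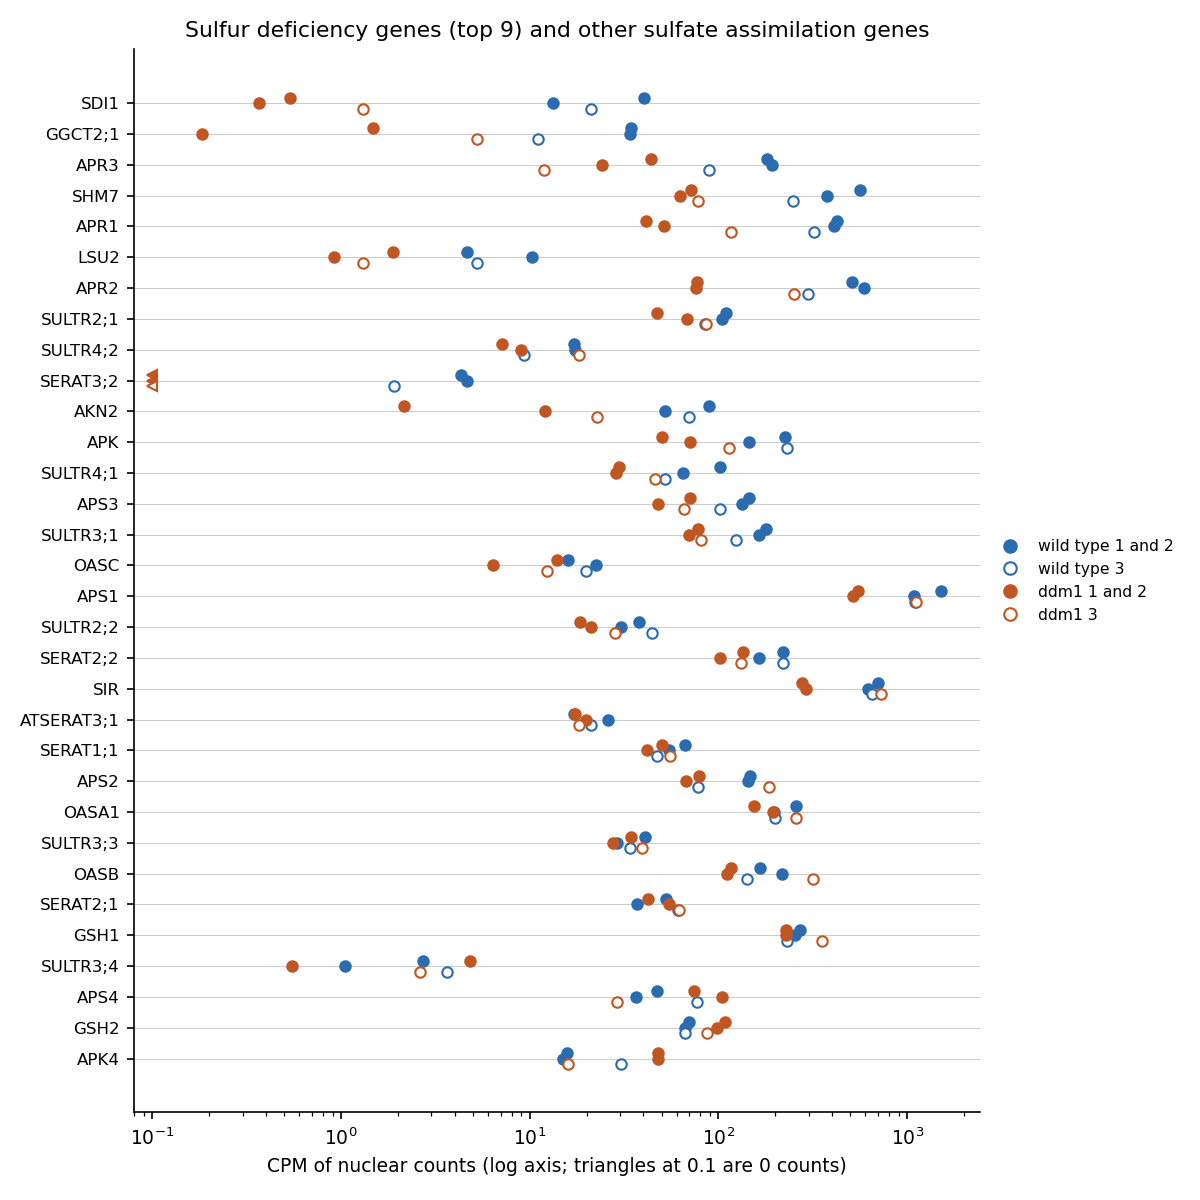
CPM of nuclear counts per library, on a log axis, for the 9 tested sulfur deficiency genes and below them the other tested sulfate transporters and assimilation enzymes, each part ordered by fold change (blue, wild type; orange, ddm1; open, replicate 3; triangles, 0 counts drawn at 0.1). In SHM7, APR1, APR3 and SDI1 the groups do not overlap, with the nearest libraries of APR3 at 89.3 and 44.0 CPM. In APS1 and SIR an open orange point lies at the level of the wild-type points.

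The 250 bases before the annotated start of these genes were searched on both strands for GAGAC, the core of the sulfur-responsive element known from a sulfate transporter promoter, that is for GAGAC or GTCTC. Of the 8 called genes of both sulfur lists, 2 held it, beside 25.7% of 26711 protein-coding loci. Both are shown as examples of promoters of genes that fell, with the element in capitals, from the RefSeq genome TAIR10.1 whose nuclear coordinates are those of TAIR10; SDI1 is chr5:19807854-19808103 and GGCT2;1 is chr5:9164885-9165134, both read from the minus strand.
SDI1: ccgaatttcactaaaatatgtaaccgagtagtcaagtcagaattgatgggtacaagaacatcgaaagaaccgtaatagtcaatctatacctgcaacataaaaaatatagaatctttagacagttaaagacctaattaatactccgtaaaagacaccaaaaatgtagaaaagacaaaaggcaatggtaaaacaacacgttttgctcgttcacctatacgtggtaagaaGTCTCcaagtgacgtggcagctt
GGCT2;1: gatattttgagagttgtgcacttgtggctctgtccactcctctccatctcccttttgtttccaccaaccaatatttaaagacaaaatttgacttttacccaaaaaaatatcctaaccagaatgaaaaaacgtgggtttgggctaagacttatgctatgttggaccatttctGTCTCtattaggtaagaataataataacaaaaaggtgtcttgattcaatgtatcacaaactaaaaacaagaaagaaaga
The letters were thus no more frequent in this window before the lowered sulfur genes than before protein-coding loci in general.

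Summed nitrate and aliphatic glucosinolate genes lay below every wild-type library in the first and second ddm1 libraries and within the wild-type range in the third, and no member was called with all libraries. None of 18 tested genes of nitrate uptake and assimilation was called, and 15 were negative with a median log2 fold change of -0.72. Without the third ddm1 library 8 of 18 fell, beside 1.15% of expressed loci, and the median was -1.53. NIA2, the main nitrate reductase gene, had 1623, 1434 and 943 CPM in wild type against 147, 243 and 1450 in ddm1 (adjusted p = 0.693). NIR1, nitrite reductase, had 287, 375 and 197 CPM against 42.1, 35.3 and 427. The third ddm1 library lay within the wild-type range in NIA2 and above it in NIR1, while the other ddm1 libraries lay several-fold below it. None of 19 tested genes of aliphatic glucosinolate synthesis was called, 18 were negative and the median was -1.16. Without the third library 7 of 19 fell, beside the same 1.15%, and the median was -1.91. With all libraries, 7 of the 19 aliphatic glucosinolate genes and 2 of the 18 nitrate genes were lower without overlap. Among all 16435 tested expressed loci, 1002 were. No member of either list was higher without overlap. CYP79F1, which commits chain-elongated methionine to glucosinolates, had 671, 322 and 686 CPM against 53.7, 160 and 410 (adjusted p = 0.470). The indole glucosinolate and camalexin genes had sums of 5192, 2751 and 3510 CPM for wild type and 6373, 5496 and 2777 CPM for ddm1. None of 18 tested was called with all libraries. Without the third, 4 rose and 3 fell, beside 1.19% and 1.15% of expressed loci.

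Other lists also differed between libraries of 1 group. Summed rapid touch and stress genes were at 5316, 1635 and 3197 CPM in wild type against 4230, 4825 and 503 in ddm1. The nuclear photosynthesis and Calvin cycle genes summed to 106331, 143864 and 70965 CPM in wild type against 74462, 79921 and 158997 in ddm1. The third ddm1 library and the second wild-type library were thus the lowest in stress genes and the highest in photosynthesis genes of their groups. None of the 59 tested photosynthesis genes was called, and their median of -0.04 became -0.50 without the third ddm1 library; for 18 chlorophyll synthesis genes it went from -0.20 to -0.85, and for 10 cell cycle genes from 0.18 to -0.87. Ribosomal protein genes turned sign in the same way, from a median of 0.09 over 301 expressed genes to -0.34. Aliphatic glucosinolate genes did not share this order, being lowest of the wild types in the second library (1993 CPM) and highest of ddm1 in the third (2365 CPM). The part of these library differences in the nitrate and glucosinolate values was not tested. Summed sulfur deficiency genes lay below every wild-type library in all 3 ddm1 libraries, and highest among these in the third.

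**Figure D4:**
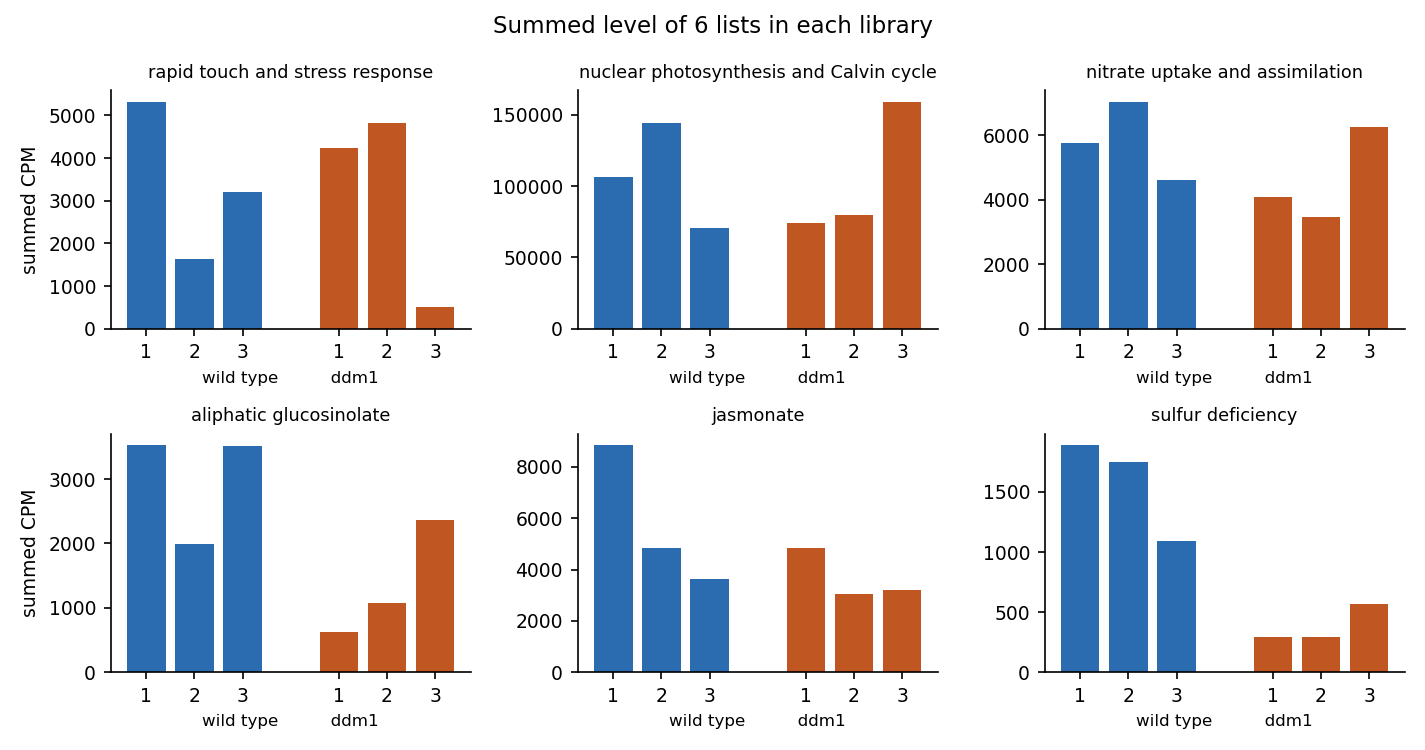
Summed CPM of nuclear counts of 6 gene lists in each library (blue, wild type 1 to 3; orange, ddm1 1 to 3; each vertical axis starts at 0). Stress genes are at 503 CPM in ddm1 replicate 3, nitrate and glucosinolate genes lie in the wild-type range in that library, and sulfur deficiency genes lie between 292 and 569 CPM in all 3 ddm1 libraries.

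Of 28 tested jasmonate genes, 23 were negative with a median of -0.94. The list summed to 8836, 4834 and 3652 CPM in wild type and 4846, 3040 and 3189 CPM for the ddm1 libraries, and the groups overlapped (two-sided exact permutation p = 0.3). With all libraries 2 of the 28 fell, beside 0.505% of expressed loci, and without the third ddm1 library 1 fell, beside 1.15%. The 2 were JAZ7 and JAZ10, members of the JAZ family that represses jasmonate responses and is itself induced by the hormone. JAZ7 had 217, 48.6 and 43.4 CPM in wild type against 6.19, 2.56 and 7.39 in ddm1 (adjusted p = 0.0167). JAZ10 had 18.99, 4.03 and 3.79 CPM against 0.808, 0 and 0.652 (adjusted p = 0.0233). The first wild-type library was several times as high as the others in both, as it was in LOX3, a jasmonate synthesis gene with 738, 101 and 166 CPM. JAZ7 lost its call without ddm1 replicate 1 or 2 (highest adjusted p = 0.0832) and JAZ10 in 4 of the 9 fits that left out a library.

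**Figure D5:**
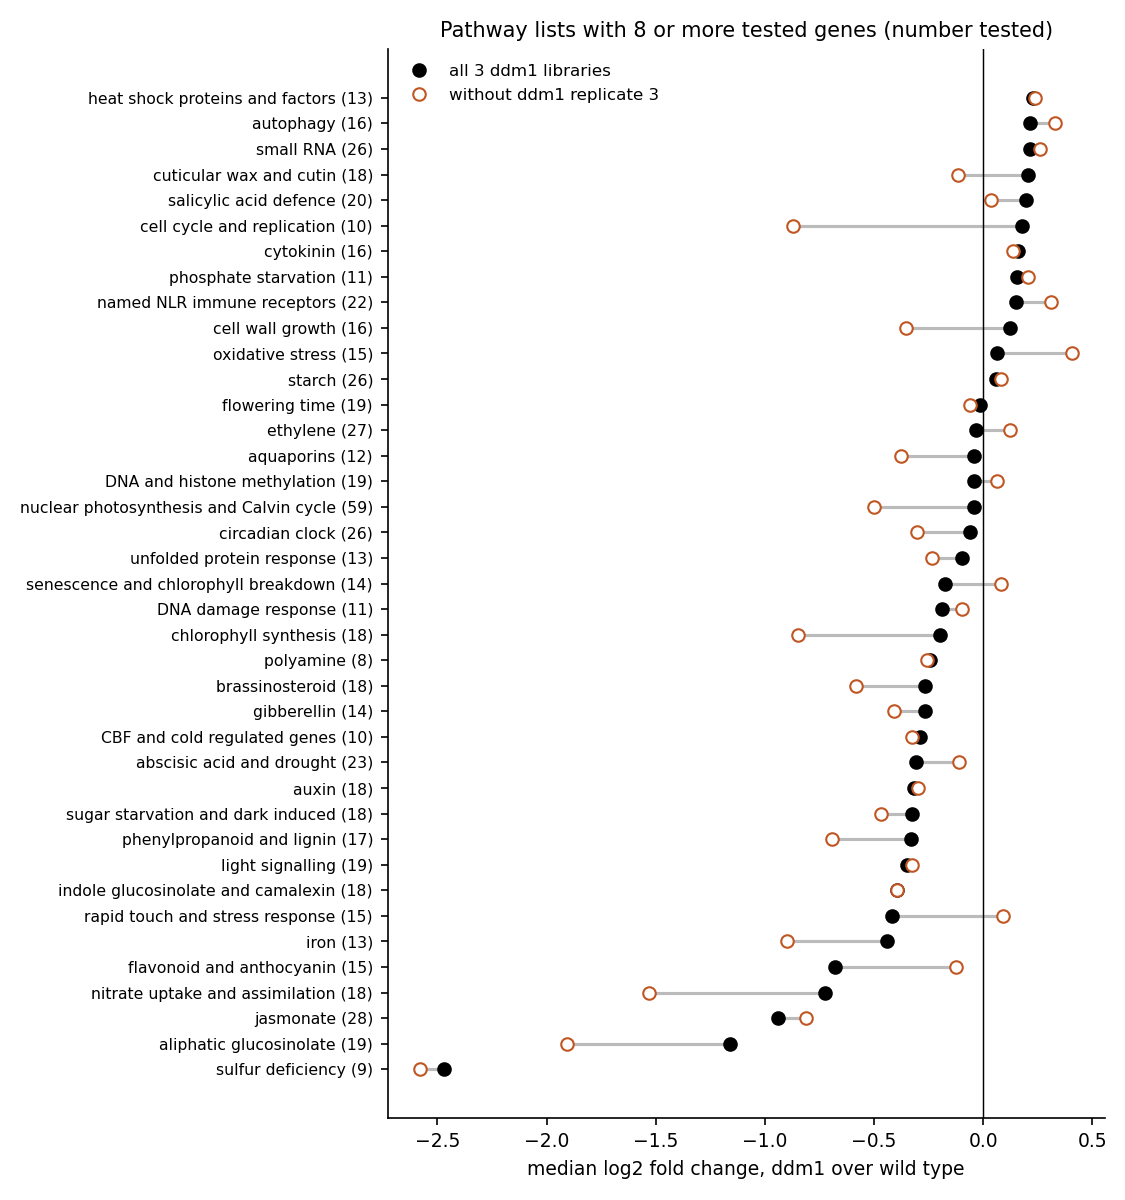
Median log2 fold change of ddm1 over wild type for each list with 8 or more tested genes, with all ddm1 libraries (black) and without ddm1 replicate 3 (open), with the number tested in brackets. Sulfur deficiency genes lie at -2.47 and -2.58 with and without that library, whereas the nitrate list moves from -0.72 to -1.53 and the cell cycle list from 0.18 to -0.87.

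Single genes of carbohydrate, hormone and water transport also fell. TIP2, a tonoplast aquaporin that lets water through the vacuole membrane, had 196, 329 and 248 CPM in wild type against 32.3, 25.8 and 74.8 in ddm1 (adjusted p = 0.00556), and it was the only one called of 12 tested aquaporins. MES16, a methyl esterase acting on chlorophyll breakdown products, had 67.0, 40.1 and 52.2 CPM against 3.77, 7.88 and 5.87 (adjusted p = 0.00568). IAGLU, which couples the auxin indole-3-acetate to glucose, had 67.4, 72.5 and 79.7 CPM against 20.9, 21.98 and 24.8 (adjusted p = 0.000343). The calls on TIP2, MES16 and IAGLU held whichever library was left out, and the groups did not overlap, as in all 83 expressed loci that fell. ATBETAFRUCT4, a vacuolar invertase that splits sucrose, had 340, 276 and 283 CPM against 106, 62.5 and 98.5 (adjusted p = 0.0152; up to 0.0776 with a library left out). BMY3, a beta-amylase gene, had 112, 133 and 91.5 CPM against 56.4, 63.9 and 57.2 (adjusted p = 0.0433, lost in 7 of the 9 fits that left out a library). It was the only one called of 26 tested starch genes, and of the 26 tested clock genes only CCA1, a morning MYB factor, was called. CCA1 had 150, 205 and 175 CPM against 96.1, 96.2 and 105 (adjusted p = 0.0193, lost in 4 of those 9 fits), while the F1 libraries were near 11.7 CPM.

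Further genes that fell whichever library was left out spanned several functions. The myb-like factor AT1G68670 had 102, 55.6 and 106 CPM against 9.02, 13.7 and 19.4 (adjusted p = 0.00182), and its relative AT1G25550 fell as well (adjusted p = 0.0165), a call lost without wild-type replicate 1 or ddm1 replicate 2. DREB26, an AP2-type transcription factor, had 20.6, 19.1 and 19.4 CPM against 2.56, 2.38 and 5.44 (adjusted p = 0.00487). AT5G24240, a phosphatidylinositol 4-kinase-like gene, had 68.0, 53.4 and 74.7 CPM against 11.04, 6.96 and 5.65 (adjusted p = 0.000188). No ddm1 library reached a wild-type library in any of these, as in all 83 expressed loci that fell. RLP19, a receptor-like protein gene, fell from 98.6, 106 and 192 CPM to 39.7, 12.5 and 18.9 (adjusted p = 0.0101), and AT4G10060, a beta-glucosidase of the GBA2 type, from 131, 155 and 96.4 CPM to 31.2, 20.3 and 15.4 (adjusted p = 0.000460). AT1G73600, annotated as an S-adenosylmethionine-dependent methyltransferase, had 682, 450 and 487 CPM against 125, 176 and 75.9 (adjusted p = 0.0123).

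The strongest rise of an expressed locus was in AT1G59930, a MADS-box gene annotated as imprinted and maternally expressed. It had 1.44, 0.895 and 1.90 CPM in wild type against 785, 781 and 1780 in ddm1 (log2 fold change 9.60 ± 0.58 SE, adjusted p = 3.95e-06), and its neighbour AT1G59920 rose with it. SQN, cyclophilin 40, which supports microRNA activity in leaf development, had 30.3, 36.4 and 21.3 CPM against 913, 1085 and 1447 (log2 fold change 5.29 ± 0.37 SE, adjusted p = 9.73e-06). All 3 ddm1 libraries thus lay over an order of magnitude above wild type, and the F1 libraries were in between at a mean of 566 CPM. The annotated SQN and the TE gene AT2G15800 share 74 bases on opposite strands of chromosome 2. AT2G15800 had no count in wild type and 10.6, 22.2 and 8.26 CPM in ddm1. The 250 bases before SQN lie wholly inside that TE gene.

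The sequences before SQN (chr2:6880899-6881148) and AT1G59930 (chr1:22061517-22061766), both raised in every ddm1 library, and before AT2G15555 (chr2:6786977-6787226), raised from no wild-type count, are shown because DDM1 acts on methylation at CG dinucleotides, which are in capitals; all 3 are read from the minus strand of TAIR10.1.
SQN: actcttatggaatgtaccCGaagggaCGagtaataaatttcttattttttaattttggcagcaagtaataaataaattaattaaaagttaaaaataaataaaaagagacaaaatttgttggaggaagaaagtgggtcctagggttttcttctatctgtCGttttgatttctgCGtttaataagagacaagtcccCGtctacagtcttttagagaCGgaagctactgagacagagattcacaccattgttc
AT1G59930: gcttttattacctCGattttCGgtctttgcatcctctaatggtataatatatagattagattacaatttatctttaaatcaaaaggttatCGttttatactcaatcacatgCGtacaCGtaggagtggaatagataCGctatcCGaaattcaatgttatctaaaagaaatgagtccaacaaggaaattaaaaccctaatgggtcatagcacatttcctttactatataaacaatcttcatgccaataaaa
AT2G15555: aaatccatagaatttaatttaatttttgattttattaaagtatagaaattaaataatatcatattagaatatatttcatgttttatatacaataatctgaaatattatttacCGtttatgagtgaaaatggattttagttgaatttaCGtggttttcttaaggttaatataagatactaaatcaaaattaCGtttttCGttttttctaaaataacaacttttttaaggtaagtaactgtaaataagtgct
They hold 6, 7 and 4 CG dinucleotides. The median in this window was 7 before the 1062 raised TE genes, 6 before the raised silent loci, 4 before the expressed loci that rose, 4 before those that fell and 5 before the 16230 located expressed loci that were not called. The windows of the expressed loci that rose were thus no richer in CG than those of other genes; methylation itself was not analysed here.

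Other raised loci were of several kinds, and not all of their calls held with a library left out. The noncoding RNA AT1G67105 went from 2.07, 0.895 and 2.03 CPM to 185, 245 and 41.1 (adjusted p = 0.00265), and AT2G16050, a C1-domain protein gene, from 10.4, 9.10 and 5.82 CPM to 72.5, 135 and 108 (adjusted p = 0.000407). Both held whichever library was left out, as did AT2G34655, an uncharacterized gene with 90.0, 94.0 and 119 CPM against 238, 262 and 252 (adjusted p = 0.00512). PDF1.2c, a plant defensin, had 1.28, 6.71 and 0.812 CPM against 22.3, 93.8 and 51.3 (adjusted p = 0.0415, lost in 5 of the 9 fits). PR4, a pathogenesis-related chitin-binding protein, had 9.58, 4.92 and 10.8 CPM against 47.1, 32.8 and 19.1 (adjusted p = 0.0202, lost in 4 of the 9 fits). None of the 20 tested genes of salicylic acid defence was called, and their median was 0.19. HSFA2, a heat shock transcription factor, had 0, 0.746 and 0 CPM against 29.1, 3.48 and 2.39, so that 1 ddm1 library held most of its counts, and without that library the adjusted p was 0.345. HSP101, the chaperone that dissolves protein aggregates, had 2.39, 4.92 and 1.49 CPM against 26.1, 9.52 and 7.83 (adjusted p = 0.0497, lost in 7 of the 9 fits). HSFA2 and HSP101 were the only 2 called of 13 tested heat shock genes (15.4%, beside 1.08% of non-TE loci higher). The median of the 13 was 0.23, and the summed heat shock list overlapped between the groups. GAI, a DELLA repressor of gibberellin responses, had 43.6, 68.8 and 43.6 CPM against 94.5, 91.8 and 131 (adjusted p = 0.0365), a call lost in 8 of the 9 fits. DND1, a cyclic nucleotide-gated channel known from defence mutants, had 111, 149 and 129 CPM against 260, 197 and 283 (adjusted p = 0.0267, lost in 5 of the 9 fits).

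Some calls came from neighbouring loci or from loci that may have near-identical copies. The neighbours MRU1 and AT5G35480, whose spans are 221 bases apart on chromosome 5, both rose, to means of 73.3 and 75.6 CPM from 17.9 and 21.5, while the TE gene AT5G35495 next to them fell (adjusted p = 0.0298). AT4G06534 and AT4G06536, in the pericentromere of chromosome 4, both fell, from means of 10.6 and 6.20 CPM to 0.541 and 0.419. Each of these 5 calls was lost in at least 5 of the 9 fits that left out a library. Of the neighbours AT1G25053, a pseudogene, and AT1G25055, an F-box gene, the first fell from a mean of 11.8 to 0.740 CPM and the second rose from 4.50 to 52.5 CPM, the latter call being lost in 8 of the 9 fits. AT2G07696, a ribosomal protein gene in the copy of mitochondrial DNA that lies on chromosome 2, rose from a mean of 38.5 to 72.8 CPM (adjusted p = 0.0391, lost in 6 of the 9 fits). Reads may have been shared within these groups where copies are near-identical. How alike their sequences are was not tested, and neither was it for the neighbours AT1G59920 and AT1G59930. Genes with an annotated antisense partner, such as FLC, APR1 and SQN, could hold reads of that partner, since the strand setting of the counting is not given in the sources used here.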

How the data were processed

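The deposited tables gave, per library and locus, estimated counts and TPM made by the authors, per the file headers; kallisto 0.46.0 and the build TAIR10 are named in the submitters' processing notes. The deposited TPM values were not used for tests. For the kallisto index, strand and fragment length the setting is not given in the sources used here. Estimated counts were rounded to whole numbers. Of 33323 nuclear loci, 32835 matched RefSeq's TAIR10.1 annotation. TE genes were annotated pseudogenes that have an mRNA and "uncharacterized protein" as product, unless remarked to be a "pseudogene of" another gene. All 9 libraries were fitted with edgeR 4.0.16 (R 4.3.3; TMM, filterByExpr, robust quasi-likelihood F test), and ddm1 was contrasted with wild type. Benjamini-Hochberg adjusted p-values come from this fit, and SE was computed from its F statistic. The p-values measure the spread between the labelled biological replicates. The test was checked on simulated counts. DESeq2 1.42.0 was an alternative.

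The 44 gene lists held 864 entries. Members and lists were chosen with earlier results of these data known. Named genes were the 15 most lowered and 15 most raised expressed non-TE loci without overlap between groups, called list members, the 5 highest called loci from 0 counts, TE genes expressed in wild type that fell and the 3 highest that rose, and up to 10 calls at 100 CPM or more. Other called genes, IAGLU, DREB26, AT5G24240, AT1G68670, AT1G25550, AT1G04770, APK, RLP19, AT1G73600, PR4, DND1, ATBETAFRUCT4, AT5G35480, MRU1, AT2G07696, AT1G59920, AT2G16586 and AT2G43375, were chosen after their values were seen, as were the uncalled genes given as examples. Floors cover counting error only, and the labels name no molecular identifiers.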

Additional observations from a re-analysis of the deposited data

How the results depend on the processing

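The 1062 TE genes higher in ddm1 became 935 to 1105 over all alternatives, and the 130 raised silent loci 97 to 149. Counts of expressed loci depended on the setting. With DESeq2, 131 rose and 224 fell in place of 52 and 83, and with expression judged by the mean over all 9 libraries 180 rose. With 1 library left out, 16 to 199 rose and 41 to 191 fell, and 3 to 7 TE genes fell. The fewest rises came without ddm1 replicate 1 (16), followed by ddm1 replicate 2 (23), wild-type replicate 1 (25) and wild-type replicate 3 (33), and the most without ddm1 replicate 3 (199). Falls were 41, 45 and 43 without ddm1 replicate 2, ddm1 replicate 1 and wild-type replicate 1, 191 without ddm1 replicate 3 and 134 without F1 replicate 3. TE genes that fell were 3 without wild-type replicate 3 or ddm1 replicate 2. Libraries that share a replicate number deviated together in the first pair only (r = 0.15, -0.55 and -0.38), so they were not taken as pairs; with the replicate number as a block, 22 expressed loci rose and 49 fell. The causes were not tested. Of 944 values of the 59 named genes under alternatives, 784 stayed on their side of the threshold, 160 lost the call and none reversed. With only the ddm1 and wild-type libraries fitted, 9 of the 59 lost the call.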
